A study of Mus musculus with 6 samples.

Results

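The genes described here encode membrane carriers of amino acids, sugars and monocarboxylates. They were taken by symbol: the solute carrier (SLC) families 1, 2, 3, 5, 6, 7, 15, 16, 36, 38 and 43, with the glucose carrier gene Slc2a1 left out. The rule found 100 genes among the 23478 in the count table, and 99 of them had enough counts to be tested. RNA was compared between 3 libraries of muscle cells and 3 of epithelial cells, sorted from tracheas of mouse embryos at day 13.5 of gestation. All 6 libraries came from embryos with the genotype Bmp4 f/f; gamma SMA eGFP, that is, with floxed Bmp4 alleles and a green fluorescent reporter of gamma smooth muscle actin, and all are labelled as controls. No Cre driver and no treatment is named for either group. Muscle cells were gated on GFP and epithelial cells on surface Epcam, so that the muscle group holds any cell with the reporter on. Nothing in the labels says whether libraries came from separate embryos or pools, so p-values measure the spread between these libraries, which may be technical.

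Solute carriers move nutrients across the plasma membrane or out of organelles. Some couple uptake to the sodium gradient, some exchange one amino acid for another, and some let glucose or lactate pass down their gradient. Several work only with a partner: the heavy chain encoded by Slc3a2 carries the light chains of the SLC7 family to the membrane, and the immunoglobulin-like proteins basigin and embigin do so for monocarboxylate carriers of the SLC16 family. In growing tissue amino acid carriers feed protein synthesis and growth signalling, and the insulin-responsive glucose carrier encoded by Slc2a4 is known as a gene of muscle and fat.

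The libraries held between 11847432 and 54848820 counts. Markers of each population separated them: all 10 smooth muscle markers were higher in muscle and all 10 epithelial markers in epithelium at the threshold used throughout. Summed over the smooth muscle list the level was 4137 CPM (counts scaled to the library's total after TMM normalization) in muscle replicate 2 and 16896 and 17829 in muscle replicates 1 and 3, against 122 to 154 in epithelium. Muscle replicate 2 and epithelium replicates 2 and 3 also held counts of olfactory and vomeronasal receptor genes, which belong to sensory neurons, in 73.2%, 74.5% and 78.6% of 1428 such genes, against 2.73% to 17.3% in the other libraries. Their part in the results for weakly expressed carriers was not tested. Of 10 cartilage markers 5 were called toward muscle and 0 toward epithelium. Hapln1, Matn1 and Comp had higher means in epithelium (9.18, 1.74 and 2.31 CPM, against 5.78, 0.53 and 0.68 in muscle). The summed levels of the list were 1010 to 1700.2 CPM in muscle and 276 to 615 in epithelium. The part of these markers in the results was not tested. Endothelial markers summed to 76.7 to 106 CPM in muscle and 2.88 to 77.4 in epithelium, with 1 of 10 called. Of 9 erythroid, 10 immune and 10 neural and glial markers, of which 5, 9 and 10 were tested, none was called in edgeR's test, 1 had an unadjusted p under 0.05 and 1 was called by DESeq2. Their summed levels were at most 44.3, 63.9 and 91.8 CPM in any library. Of 6 mesothelial markers 1 was higher in epithelium, the keratin gene Krt19, which accounts for most of the list's sum there. In sorted bulk samples fewer cells of a type and less RNA per cell cannot be told apart.

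For the carriers that follow, the 250 bases before the transcription start are shown for the 2 largest changes in each direction among called genes for which RefSeq and GENCODE place a single start within 50 bases of each other (4 of 15 called genes). They let a reader compare the upstream sequence of a pair that was higher in muscle, Slc1a3 and Slc1a4 of 1 family, with that of a pair higher in epithelium, Slc16a12 and Slc15a2. Sequences are from RefSeq on GRCm38.p6, all 4 on the minus strand, at chr15:8710808-8711057, chr11:20332714-20332963, chr19:34747329-34747578 and chr16:36784963-36785212 in that order. Capitals mark matches on either strand to the GC box (GGGCGG, known to bind Sp and Klf factors) or the CCAAT box (CCAAT, bound by NF-Y).
Slc1a3: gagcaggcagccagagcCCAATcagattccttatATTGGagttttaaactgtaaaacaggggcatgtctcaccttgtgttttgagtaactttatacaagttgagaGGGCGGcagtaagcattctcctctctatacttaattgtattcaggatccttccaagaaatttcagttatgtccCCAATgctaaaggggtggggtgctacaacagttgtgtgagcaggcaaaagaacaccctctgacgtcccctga
Slc1a4: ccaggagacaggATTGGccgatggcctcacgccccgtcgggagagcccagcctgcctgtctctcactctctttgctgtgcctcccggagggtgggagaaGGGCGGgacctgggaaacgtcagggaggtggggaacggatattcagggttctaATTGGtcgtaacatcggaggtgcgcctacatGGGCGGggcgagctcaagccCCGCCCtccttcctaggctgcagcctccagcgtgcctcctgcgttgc
Slc16a12: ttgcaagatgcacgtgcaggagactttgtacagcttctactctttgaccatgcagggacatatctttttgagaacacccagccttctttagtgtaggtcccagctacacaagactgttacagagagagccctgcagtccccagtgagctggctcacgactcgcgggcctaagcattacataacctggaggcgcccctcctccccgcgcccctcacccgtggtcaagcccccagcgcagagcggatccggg
Slc15a2: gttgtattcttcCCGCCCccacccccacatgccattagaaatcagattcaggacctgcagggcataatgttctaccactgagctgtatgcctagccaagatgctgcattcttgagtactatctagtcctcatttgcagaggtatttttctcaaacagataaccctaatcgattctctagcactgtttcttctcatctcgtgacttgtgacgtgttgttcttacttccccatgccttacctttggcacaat
The GC box occurred in 32.7% and the CCAAT box in 33.85% of all 32851 windows of this length in the table. Slc1a4 held 3 matches to the GC box and 2 to the CCAAT box, Slc1a3 held 1 and 3, Slc15a2 held 1 and 0, and Slc16a12 held neither. Guanine and cytosine made up 64.8% of the Slc1a4 window, 57.6% of that of Slc16a12, 45.2% of that of Slc15a2 and 44.8% of that of Slc1a3. No window held a CArG box (found in 1.47% of all windows), an MCAT motif (CATTCC, 12.6%), a forkhead motif (TGTTTAC, 3.17%), a grainyhead motif (AACCNGTT, 1.79%) or an amino acid response element (TGATGNAAN, 3.44%), each searched on both strands. The E box (CANNTG), in 66.2% of all windows, was found in those of Slc1a3, Slc16a12 and Slc15a2. The pair higher in muscle held both boxes and differed in base composition.

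The quasi-likelihood test of edgeR called 15 of the 99 carriers tested at an adjusted p under 0.05, with 8 toward muscle and 7 toward epithelium. Those are 8.08% and 7.07% of the carriers, beside 6.58% and 4.11% of all 19375 genes tested. In either direction 15.2% of the carriers and 10.7% of all genes were called. Groups did not overlap for 27 carriers (27.3%, beside 26.9% of all genes). The median log2 fold change, muscle over epithelium, was -0.37 for the carriers and -0.10 for all genes, and the medians of its absolute value were 0.83 and 0.61. With library totals as the only scaling, which moved the median of all genes to -0.33, 5 carriers passed toward muscle and 9 toward epithelium, and the calls of Slc1a3, Slc1a4 and Slc6a9 were lost. Within the 4 libraries that share the later date in the file's header the counts were 11 and 9, all 15 calls among them, while the earlier date held a single library of each group, too few to test. Without epithelium replicate 3 the counts were 3 and 6, and without muscle replicate 3 they were 5 and 6. The share of all genes called in either direction moved as well. It was 12.8% with library totals and 17.6% within the later date. Without epithelium replicate 3 it was 5.78%, and without muscle replicate 3 it was 6.92%.

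**Figure D1:**
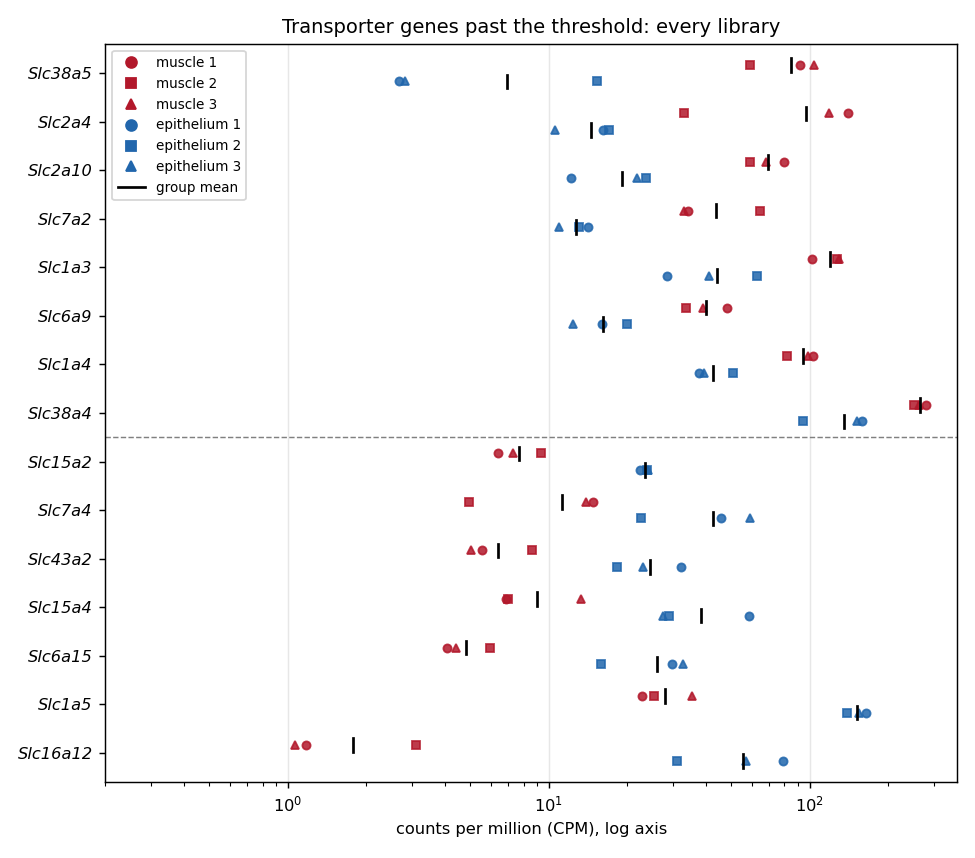
Each row is 1 of the 15 carriers that passed the threshold, and points give its level in CPM on a log axis in each of the 3 muscle (red) and 3 epithelial (blue) libraries, with black bars for group means. The 8 genes above the dashed line were higher in muscle and the 7 below it in epithelium, and in each row the red and blue points do not overlap.

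The library workflow keeps no strand, so strand cannot tell reads of overlapping genes apart. Of the called carriers Slc6a9 (30.2%), Slc7a4 (13.3%), Slc43a2 (9.18%), Slc15a4 (8.04%) and Slc7a2 (6.95%) share exon sequence with other annotated genes over the given percentage of their exon length.

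Carriers split into a well expressed and a weakly expressed part. Counting a gene as expressed where every library of a group had at least 5 CPM, 46 of the 100 carriers were expressed, 36 of them in both groups, 4 by the muscle libraries alone and 6 by the epithelial libraries alone. All 15 called genes were among the 46. Compared per length of exon, the highest carriers in muscle were Slc38a4 (62.0 ± 3.19 CPM per kilobase, SD, n = 3), Slc38a2 (56.0 ± 9.94), Slc3a2 (40.2 ± 1.36) and Slc38a5 (37.8 ± 10.4). In epithelium they were Slc16a3 (48.5 ± 24.4), Slc3a2 (43.9 ± 6.73), Slc38a2 (38.2 ± 5.55) and Slc1a5 (36.5 ± 3.09). Within each of these rankings the neighbours lay within their spread, apart from the step from Slc38a2 to Slc3a2 in muscle. By this order Slc38a5 was number 4 of the 100 in muscle and number 30 in epithelium, and Slc1a5 was number 19 in muscle and number 4 in epithelium.

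**Figure D2:**
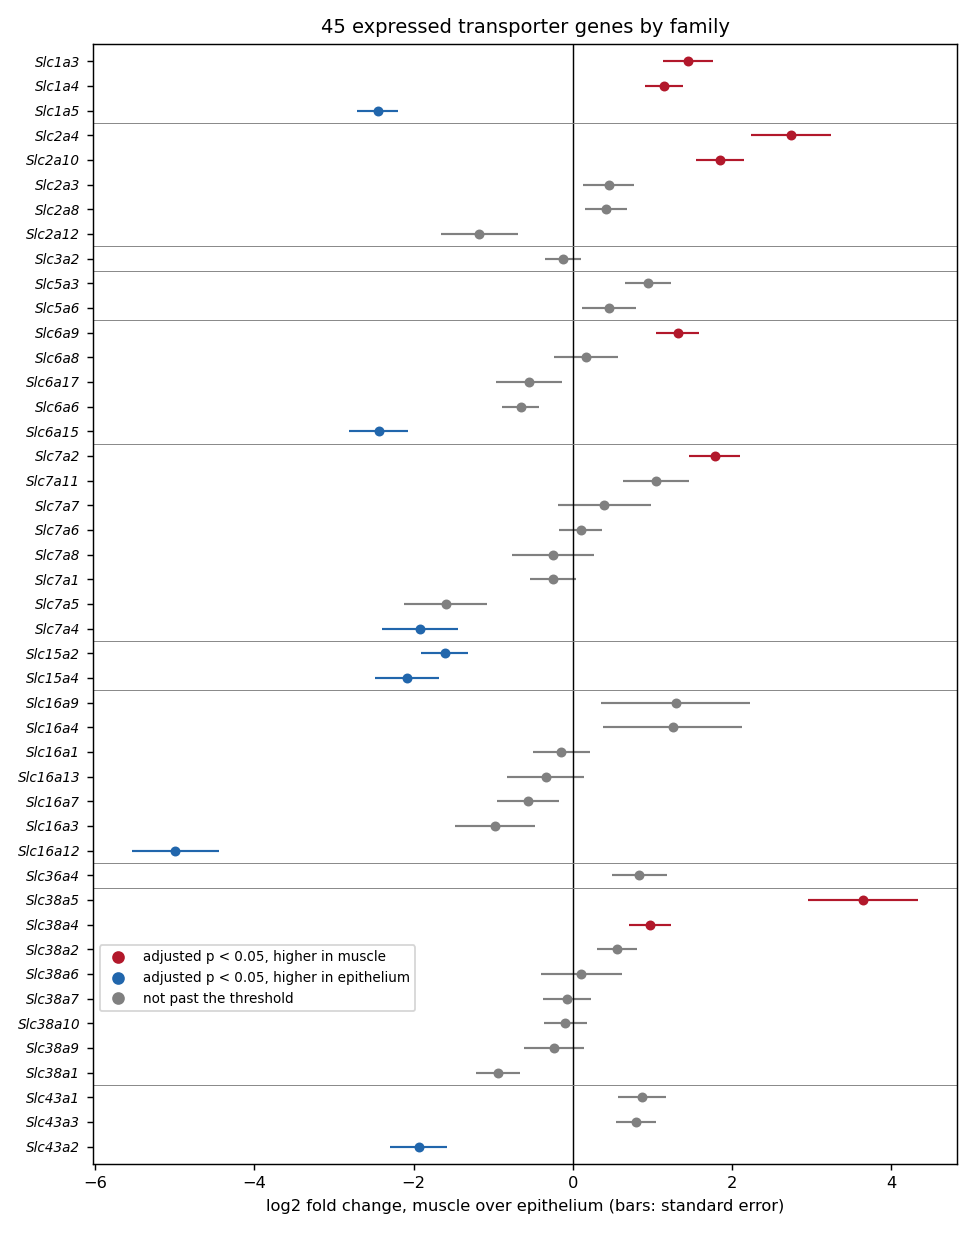
Log2 fold change of muscle over epithelium for all but 1 of the 46 expressed carriers, grouped by SLC family and divided by lines, with standard errors as bars. Red and blue mark genes past the threshold in either direction and grey the rest; SLC1, SLC6 and SLC7 each hold genes of both colours.

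The SLC1 family carries glutamate and small neutral amino acids. Slc1a5, on chromosome 7 at 16781340 to 16798274 (GRCm38, plus strand), encodes ASCT2, an exchanger known for glutamine uptake, and had 22.8, 25.4 and 35.3 CPM in the muscle libraries, in the order of their replicate numbers, and 164, 138 and 155 in epithelium. The lowest epithelial library was thus well above the highest muscle library. On the log2 scale muscle over epithelium was -2.45 ± 0.26 (SE, adjusted p = 0.00075), a level 5.47-fold higher in epithelium, and it passed in all 15 alternative analyses. Slc1a4 encodes ASCT1, its close relative for alanine, serine and cysteine, and went the other way. It had 103, 81.5 and 98.2 CPM in muscle and 37.5, 50.9 and 39.4 in epithelium (log2 fold change 1.15 ± 0.23, adjusted p = 0.014). The ratio of Slc1a5 to Slc1a4 was 0.22 to 0.36 in muscle and 2.72 to 4.37 in epithelium. Slc1a3, the gene of the glutamate carrier GLAST, which is also known from glia, had 102, 127 and 129.95 CPM in muscle and 28.5, 62.8 and 41.2 in epithelium (1.44 ± 0.31, adjusted p = 0.019). Neural and glial markers together summed to 24.1 to 73.5 CPM in muscle and 32.0 to 91.8 in epithelium. Of the glial genes in that list Fabp7 and S100b had higher means in muscle (1.45 and 4.54 CPM, against 0.89 and 2.75) and Sox10 in epithelium (4.11 against 5.38), each with overlapping groups, and the list's part in the level of Slc1a3 was not tested. The call of Slc1a4 was lost without muscle replicate 1 (adjusted p = 0.056) or 3 (0.051) or epithelium replicate 1 (0.069) or 3 (0.095). That of Slc1a3 was lost without muscle replicate 3 (0.051) or epithelium replicate 3 (0.10). The remaining SLC1 genes, Slc1a1, Slc1a2, Slc1a6 and Slc1a7, were under 5 CPM in at least 1 library of each group.

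Of 11 sugar carriers of the SLC2 family, 2 passed toward muscle and none toward epithelium in edgeR's test, beside 6.58% and 4.11% of all genes, so that few or no calls toward epithelium are the background among 11 genes. A difference in direction was not tested, and 1 of the 11 was higher in epithelium at an unadjusted p under 0.05 and in DESeq2's test. Slc2a4, on chromosome 11 at 69942539 to 69948188 (minus strand), encodes GLUT4, the glucose carrier that insulin brings to the cell surface. It had 140.3, 33.0 and 118 CPM in muscle and 16.1, 17.0 and 10.6 in epithelium (log2 fold change 2.74 ± 0.50, adjusted p = 0.0085). Muscle replicate 2, the muscle library with the least of the smooth muscle markers, also had the least Slc2a4 of the 3, still above every epithelial library. Slc2a10, whose product GLUT10 is known from arterial tortuosity syndrome, had 79.8, 59.0 and 67.9 CPM in muscle and 12.2, 23.5 and 21.7 in epithelium. The difference of 1.85 ± 0.30 on the log2 scale (adjusted p = 0.0049) passed in all 15 alternative analyses. The neuronal-type glucose carrier gene Slc2a3 (0.45 ± 0.32, adjusted p = 0.56) and Slc2a8 (0.42 ± 0.27, adjusted p = 0.48) did not pass. Slc2a12 had 3.69 to 5.11 CPM in muscle and 8.57 to 11.6 in epithelium (-1.18 ± 0.48, adjusted p = 0.19). Slc2a4 relative to Slc2a3 stood at 1.29 to 4.26 in muscle and at 0.52 to 0.71 in epithelium. The sodium-coupled intestinal glucose carrier gene Slc5a1 had 0.10 to 5.04 CPM, with its highest value in muscle replicate 2.

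None of the 11 SLC5 genes was called in edgeR's or DESeq2's test, beside 10.7% and 18.3% of all genes. In edgeR's test 1 of the 11 had an unadjusted p under 0.05. That gene, Slc5a3, encodes the myo-inositol carrier SMIT1 and had 59.3, 40.7 and 67.4 CPM in muscle and 22.3, 37.2 and 27.7 in epithelium. Its lowest muscle library was above every epithelial one, and the log2 fold change of 0.94 ± 0.29 was not called (adjusted p = 0.075). Slc5a3 did pass in 4 of the 15 alternatives, namely without muscle replicate 2 (adjusted p = 0.027), without epithelium replicate 2 (0.034), within the later date (0.015) and without the 3 libraries with most receptor counts (0.038). Slc5a6, the gene of the multivitamin carrier, had 15.1 to 38 CPM in muscle and 17.6 to 18.9 in epithelium (0.45 ± 0.34, adjusted p = 0.60).

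The SLC38 family, sodium-coupled carriers of small neutral amino acids, took the largest share of the reads, with 1227 ± 178 CPM (SD, n = 3) over its 11 genes in muscle and 981 ± 169 in epithelium. Slc38a5, the gene of the glutamine and histidine carrier SNAT5, showed the largest fold toward muscle of the 99 carriers. It lies on chromosome X at 8271133 to 8280179 (plus strand). It had 91.6, 58.9 and 104 CPM in muscle and 2.68, 15.3 and 2.82 in epithelium, so epithelium replicate 2 stood above the other epithelial libraries. The log2 fold change was 3.65 ± 0.69 (adjusted p = 0.011), 4.88 (adjusted p = 0.00011) without epithelium replicate 2, and past the threshold in all 15 alternative analyses. Slc38a4, a gene known to be imprinted, with expression from the paternal copy, had 279, 252 and 262 CPM in muscle and 159, 94.3 and 152 in epithelium. The difference of 0.97 ± 0.26 on the log2 scale lay just past the threshold (adjusted p = 0.048). The call was lost without muscle replicate 1 (adjusted p = 0.17) or 3 (0.15) and without epithelium replicate 1 (0.077), 2 (0.081) or 3 (0.18). Slc38a1, the gene of SNAT1, a main glutamine carrier, had 115, 79.6 and 117 CPM in muscle and 255, 163 and 179.9 in epithelium. Every epithelial library was above every muscle library, and the change of -0.94 ± 0.27 on the log2 scale was not called (adjusted p = 0.064). The same gene did pass in 9 of the 15 alternative analyses, among them DESeq2's size factors (adjusted p = 0.019), library totals (0.0028), DESeq2's Wald test (4.1e-05), the date term (0.0099), the later date alone (0.025) and the fit without epithelium replicate 2 (0.033). Slc38a2, the gene of the starvation-induced SNAT2, had 396 to 565 CPM in muscle and 298 to 392 in epithelium (0.55 ± 0.25, adjusted p = 0.24), and passed in 3 of the 15 alternatives, the date term among them (adjusted p = 0.031). Slc38a10 had 167 to 232 and 171 to 284 CPM (-0.10 ± 0.27, adjusted p = 0.94).

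Slc38a1, Slc38a2 and Slc38a4 are neighbours on mouse chromosome 15 (GENCODE M21, GRCm38) on the minus strand, at 96571418 to 96642913, 96687392 to 96699730 and 96994820 to 97055956. The gaps between them are 44.5 and 295 kilobases. Their fold changes went from -0.94 to 0.55 to 0.97 along the chromosome. In every muscle library Slc38a1 stood at 0.32 to 0.45 of Slc38a4, and in every epithelial library at 1.19 to 1.73. Against Slc38a2 it stood at 0.20 to 0.22 in muscle and at 0.55 to 0.65 in epithelium. Among the 16 pairs of carriers that lie next to each other within 1 megabase, 4 further pairs had both genes expressed. Their log2 fold changes were 0.87 and 0.79 for Slc43a1 and Slc43a3, 0.39 and -0.25 for Slc7a7 and Slc7a8, 1.25 and -0.55 for Slc16a4 and Slc6a17, and -0.10 and -0.98 for Slc38a10 and Slc16a3, none of them called.

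**Figure D3:**
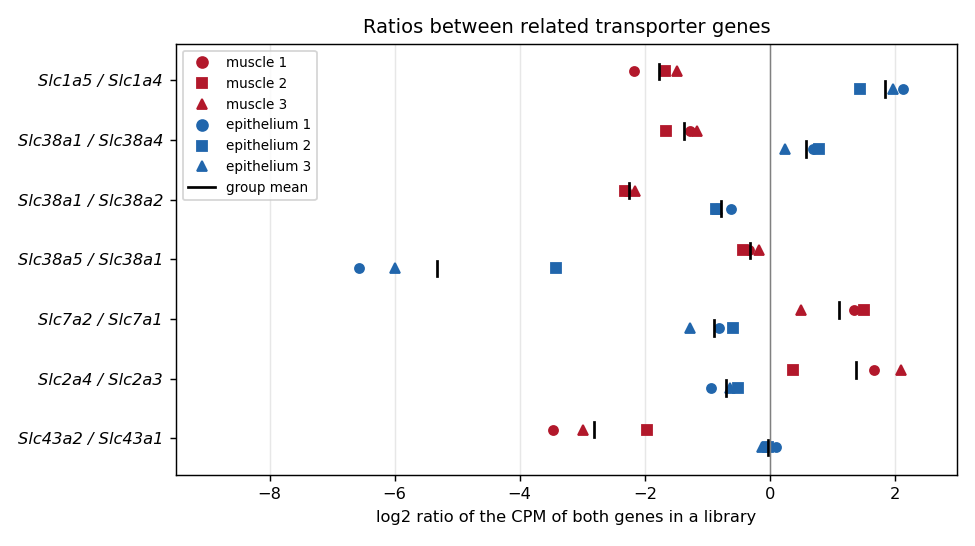
Log2 of the ratio between the CPM of related carriers, for 7 gene pairs, in each muscle (red) and epithelial (blue) library, with black bars for group means. The ratio of Slc1a5 to Slc1a4 is under 0 in the 3 muscle libraries and above 0 in the 3 epithelial ones, and the groups do not overlap for any of the 7 pairs.

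The 7 pairs of that plot were chosen with their values in view, so the ratios are a description without a test. Slc38a5 stood at 0.74 to 0.89 of Slc38a1 in muscle and at 0.011 to 0.094 in epithelium. Slc7a2 relative to Slc7a1 stood at 1.41 to 2.83 in muscle and at 0.41 to 0.67 in epithelium. Slc43a2 relative to Slc43a1 stood at 0.090 to 0.26 in muscle and at 0.92 to 1.07 in epithelium.

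The SLC7 family carries cationic amino acids alone (Slc7a1 to Slc7a3) or pairs with a heavy chain to exchange amino acids. Slc7a2, the gene of the arginine and lysine carrier CAT-2, had 34.2, 64.3 and 32.9 CPM in muscle and 14.1, 13.1 and 10.9 in epithelium (log2 fold change 1.78 ± 0.32, adjusted p = 0.0076). Muscle replicate 2 was the highest library. Without epithelium replicate 3 the call was lost (adjusted p = 0.065). Slc7a4, a relative of the cationic carriers, had 14.7, 4.94 and 13.9 CPM in muscle and 45.8, 22.5 and 58.9 in epithelium (-1.92 ± 0.48, adjusted p = 0.033). Its call was lost without muscle replicate 1 (adjusted p = 0.052) or 3 (0.057) and without epithelium replicate 1 (0.064) or 3 (0.085). Slc7a1, the common cationic carrier gene, had 13.5 to 23.3 CPM in muscle and 19.6 to 26.6 in epithelium (-0.25 ± 0.29, adjusted p = 0.81).

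The heavy chain gene Slc3a2 had 142, 137 and 147 CPM in muscle and 176, 129 and 159.9 in epithelium, and its difference was smaller than the spread (-0.12 ± 0.22, adjusted p = 0.91). Of the light chains that pair with it, Slc7a5, the gene of the leucine carrier LAT1, had 2.51, 6.69 and 8.57 CPM in muscle and 25.9, 16.8 and 11 in epithelium. Every epithelial library was above every muscle library, and the log2 fold change of -1.60 ± 0.52 did not pass (adjusted p = 0.093) except in DESeq2's Wald test (0.030). The light chain gene Slc7a6 had 64.5 to 92.6 CPM in muscle and 52.7 to 89.3 in epithelium (0.10 ± 0.27, adjusted p = 0.94). Slc7a11, the gene of the cystine carrier xCT, had 15.7, 34.4 and 47.8 CPM in muscle and 11.7, 14.7 and 21.2 in epithelium (1.04 ± 0.41, adjusted p = 0.17), and passed without muscle replicate 1 (adjusted p = 0.042). Slc7a8 did not pass either (-0.25 ± 0.52, adjusted p = 0.92). The other heavy chain gene, Slc3a1, known from kidney and gut, had 0.076 to 3.91 CPM.

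In the SLC43 family, which carries large neutral amino acids without sodium, Slc43a2, the gene of LAT4, had 5.55, 8.59 and 5.03 CPM in muscle and 32.1, 18.2 and 22.9 in epithelium. The difference of -1.94 ± 0.36 on the log2 scale (adjusted p = 0.0092) passed in all 15 alternative analyses. Slc43a1, the gene of LAT3, had 33.6 to 61.6 CPM in muscle and 18.7 to 30.1 in epithelium (0.87 ± 0.30, adjusted p = 0.12), with an adjusted p of 0.043 with the date term. Slc43a3, known as a purine base carrier gene, had 58.8 to 67.2 and 27.3 to 46.3 CPM (0.79 ± 0.25, adjusted p = 0.088), and passed in 4 of the 15 alternatives, among them the date term (0.025), the later date (0.043) and the fit without epithelium replicate 2 (0.037). The groups did not overlap for any of the 3 genes, beside 26.9% of all genes tested. Only Slc43a2 was called in the main fit, beside 10.7% of all genes in either direction.

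The SLC6 family carries neurotransmitters, amino acids, taurine and creatine. Of 17 genes 5 were expressed, 1 was higher in muscle and 1 in epithelium, beside 6.58% and 4.11% of all genes. Slc6a15, the gene of the neutral amino acid carrier B0AT2, had 4.07, 5.94 and 4.4 CPM in muscle and 29.6, 15.8 and 32.7 in epithelium (log2 fold change -2.44 ± 0.37, adjusted p = 0.0037) that passed in all 15 alternative analyses. Slc6a9, the gene of the glycine carrier GlyT1, had 48.0, 33.4 and 39.0 CPM in muscle and 16, 19.9 and 12.4 in epithelium (1.32 ± 0.27, adjusted p = 0.015). The genes that overlap its exons are B4galt2, Ccdc24 and Gm17114. The call was lost without muscle replicate 1 (adjusted p = 0.054) or epithelium replicate 3 (0.086). The taurine carrier gene Slc6a6 had 37.6, 32.2 and 43.5 CPM in muscle and 57.3, 51.8 and 69.3 in epithelium. It did not overlap between groups and did not pass (-0.65 ± 0.23, adjusted p = 0.13). It passed in 4 of the 15 alternatives, with DESeq2's size factors (0.029), library totals (0.011), DESeq2's Wald test (0.0011) and the date term (0.038). The creatine carrier gene Slc6a8 differed by less than its spread (0.16 ± 0.40, adjusted p = 0.93). The serotonin carrier gene Slc6a4 had 0.076, 2.40 and 0.15 CPM in muscle, 4.33, 5.08 and 2.78 in epithelium and an adjusted p of 0.52, and the adjusted p was 0.049 without muscle replicate 2, 0.045 within the later date and 0.012 without the 3 libraries with most receptor counts.

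Carriers of small peptides belong to the SLC15 family. Of its 5 genes 2 were expressed, and both were higher in epithelium, beside 4.11% of all genes. The other 3 were not called. Slc15a2, the gene of PEPT2, had 6.39, 9.34 and 7.28 CPM in muscle and 22.3, 23.9 and 24.0 in epithelium, with little spread in either group (-1.61 ± 0.29, adjusted p = 0.0082). Slc15a4, the gene of a histidine and peptide carrier of lysosomes, had 6.84, 6.99 and 13.2 CPM in muscle and 58.4, 29.0 and 27.5 in epithelium (-2.08 ± 0.40, adjusted p = 0.011). Both passed in all 15 alternative analyses. The carriers of the SLC36 family held no called gene among 4 in edgeR's or DESeq2's test, beside 10.7% and 18.3% of all genes. Slc36a4, which had an unadjusted p under 0.05 in edgeR's test, was the only one of them expressed (0.83 ± 0.34, adjusted p = 0.19, and 0.026 within the later date). Slc36a1 had 4.0 to 6.75 CPM over the 6 libraries.

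The largest fold of the 99 carriers was in the SLC16 family. Slc16a12, the gene of a creatine carrier linked to cataract in people, had 1.18, 3.10 and 1.06 CPM in muscle and 78.8, 30.9 and 56.8 in epithelium. All 3 epithelial libraries were far above all 3 muscle libraries. The gene lies on chromosome 19 at 34668403 to 34747289 (minus strand), downstream of the window printed for it. Its log2 fold change was -4.99 ± 0.55 (adjusted p = 0.00085), a level 31.8-fold higher in epithelium, and it was -5.62 (adjusted p = 0.00012) without muscle replicate 2. It passed in all 15 alternative analyses. Neither Slc16a3 nor Slc16a1, both genes of lactate carriers, was called. Slc16a3, the gene of MCT4, known for lactate export, had 203, 61.3 and 128 CPM in muscle and 382, 122 and 270.0 in epithelium (-0.98 ± 0.50, adjusted p = 0.32). In both groups replicate 2, of the earlier date, was lowest and replicate 1 highest. With the date as a term the difference was -0.98 ± 0.22 and passed (adjusted p = 0.026), as it did without the 3 libraries with most receptor counts (0.028). Slc16a1, the gene of MCT1, had 29.8 to 56.6 CPM in muscle and 27.2 to 65.4 in epithelium (-0.15 ± 0.36, adjusted p = 0.93).

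Of the genes of accessory proteins of these carriers, Emb and Nptn were called, in opposite directions, and Bsg was not. Emb, the gene of embigin, had 7.30, 6.64 and 2.73 CPM in muscle and 147, 146 and 187 in epithelium (log2 fold change -4.85 ± 0.41, adjusted p = 0.00033). Nptn, the gene of the related neuroplastin, had 162, 126 and 190.3 CPM in muscle and 57.3, 54.9 and 69.0 in epithelium (1.40 ± 0.25, adjusted p = 0.0074). Both passed in all 15 alternative analyses. Bsg, the gene of basigin, the usual partner of MCT1 and MCT4, stood at 778 to 922 CPM in muscle and 657 to 845 in epithelium (0.20 ± 0.23, adjusted p = 0.82).

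**Figure D4:**
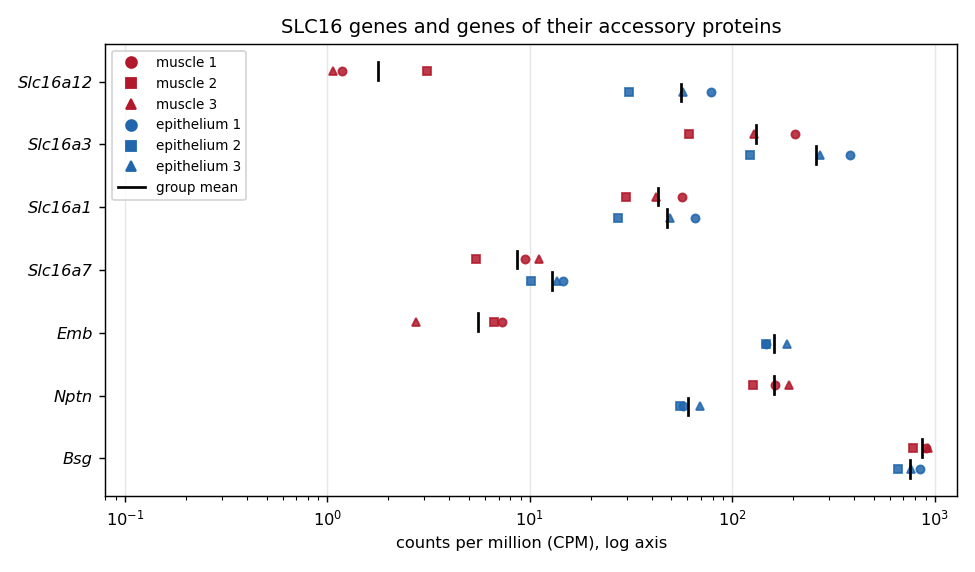
Levels in CPM on a log axis of 4 SLC16 genes and of Emb, Nptn and Bsg in each muscle (red) and epithelial (blue) library, with black bars for group means. Slc16a12 and Emb lie far to the left in muscle, with at most 3.10 and 7.30 CPM, while Slc16a1, Slc16a3 and Bsg overlap between groups.

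Genes that make, use or sense the carried nutrients were read from 5 lists, with 74 genes tested, and 8 of them passed toward muscle and 4 toward epithelium (10.7% of all genes were called in either direction). Without muscle replicate 1 or 3 or epithelium replicate 3, 4 were higher in muscle, and without muscle replicate 3 or epithelium replicate 1, 2 were higher in epithelium. Of all genes, 6.44% and 6.92% were called without muscle replicates 1 and 3. Without epithelium replicates 1 and 3 these shares were 7.59% and 5.78%. Of 5 genes of accessory proteins 1 was higher in muscle, Nptn, and 1 in epithelium, Emb. Of 30 genes of amino acid metabolism 4 passed toward muscle and none toward epithelium in edgeR's test, where 2 were higher in epithelium at an unadjusted p under 0.05 and DESeq2 called 0 there. They were the taurine synthesis genes Cdo1 and Csad, the creatine synthesis gene Gamt and Abat, which breaks down GABA. Gamt had 58.8, 48.3 and 58.5 CPM in muscle and 12.4, 18.5 and 11.7 in epithelium (1.96 ± 0.27, adjusted p = 0.0021), and Abat, with 105 to 148 CPM in muscle and 26.7 to 51.0 in epithelium, differed by 1.80 ± 0.30 (adjusted p = 0.0055). Cdo1 had 160.4, 171 and 184 CPM in muscle and 13.6, 57.4 and 11.5 in epithelium (2.65 ± 0.58, adjusted p = 0.020). Without epithelium replicate 2 its log2 fold change was 3.72, and it lost its call in 4 of the 6 analyses that left out a library, namely muscle replicate 1 (adjusted p = 0.056), 2 (0.051) or 3 (0.060) or epithelium replicate 3 (0.060). Csad, the smallest change of the 4, had 34.7 to 60.3 CPM in muscle and 20.5 to 25.9 in epithelium.

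Of 15 genes of sugar and lactate use tested, 3 passed toward muscle and 1 toward epithelium, beside 6.58% and 4.11% of all genes. Txnip, which restrains glucose uptake, had 93.4, 80.8 and 97.7 CPM in muscle and 29.1, 28.9 and 15.3 in epithelium (1.89 ± 0.30, adjusted p = 0.0041). The inositol phosphatase gene Impa1 (1.21 ± 0.28, adjusted p = 0.023) and the sorbitol dehydrogenase gene Sord (0.91 ± 0.24, adjusted p = 0.045) were also higher in muscle. The calls of Impa1 and Sord were lost in 4 and 5 of the 6 analyses without a library, with adjusted p up to 0.092 and 0.22. Of 14 genes of the amino acid response 1 was called, Sesn2, a leucine sensor gene, which was higher in epithelium (-1.46 ± 0.22, adjusted p = 0.0034). Atf4, which drives many amino acid carrier genes under starvation, had 164 to 206 CPM in muscle and 187 to 209 in epithelium (-0.09 ± 0.22, adjusted p = 0.93). Of 10 genes of glutathione synthesis and its control 1 was called, Nfe2l2 (-0.96 ± 0.25, adjusted p = 0.041), which lost its call in 5 of the 6 leave-one-out analyses (adjusted p up to 0.16).

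The 54 carriers that were not counted as expressed held no called gene in edgeR's test, where 0 had an unadjusted p under 0.05, and DESeq2 called 1. Their median level was 0.30, 3.20 and 0.10 CPM in muscle replicates 1 to 3 and 0.13, 4.04 and 2.59 CPM in epithelium replicates 1 to 3. It was thus high in muscle replicate 2 and epithelium replicates 2 and 3, the libraries with counts of olfactory and vomeronasal receptor genes, whose 95th percentiles were 1.90, 3.48 and 1.38 CPM there and at most 0.15 CPM in the other libraries. In all, 6 carriers had at most 3 counts in each of muscle replicates 1 and 3 and epithelium replicate 1 and more in the other 3 libraries. They were Slc2a7, Slc5a10, Slc6a11, Slc7a12, Slc15a5 and Slc36a3. The gene of the amino acid carrier ATB0,+ of mature airway epithelium, Slc6a14, had at most 1.09 CPM in epithelium and 2.70 CPM in muscle replicate 2. When muscle replicate 2 and epithelium replicates 2 and 3 were left out, an analysis chosen after the data were seen, 8 carriers were higher in muscle and 11 in epithelium, with 12 of the 15 calls kept and those of Slc38a4, Slc6a9 and Slc7a2 lost. That analysis rests on a single epithelial library, which was assumed to vary like the muscle libraries.

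**Figure D5:**
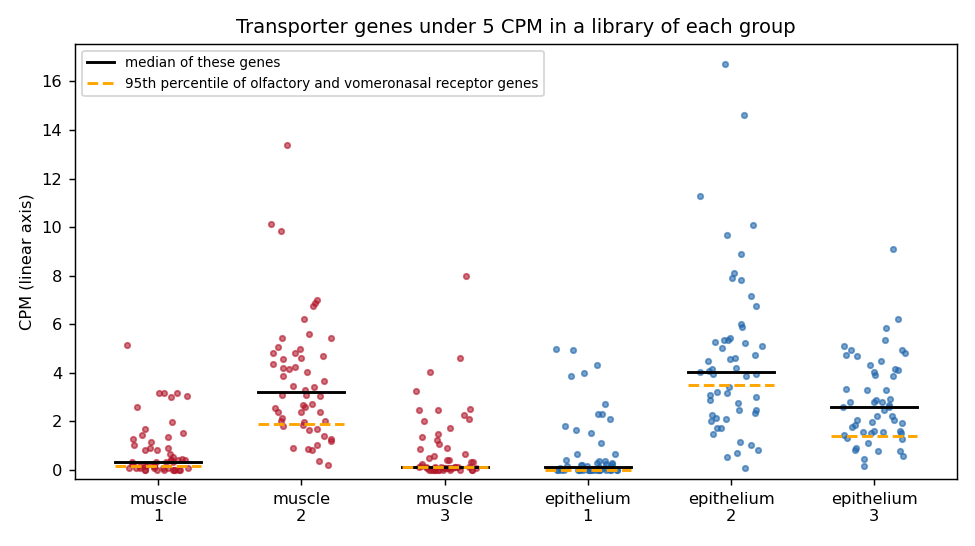
Levels in CPM, on a linear axis, of the 54 carriers that were under 5 CPM in at least 1 library of each group, by library, with the median of these genes (black line) and the 95th percentile of olfactory and vomeronasal receptor genes (dashed). The medians are 3.20, 4.04 and 2.59 CPM in muscle replicate 2 and epithelium replicates 2 and 3 and at most 0.30 in the other 3 libraries.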

How the data were processed

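Gene counts of 3 muscle and 3 epithelial libraries were used as deposited. The values are whole-number read counts per gene that the authors made and deposited in 1 table; per the labels' protocols RNA was extracted with Trizol and amplified with a SMART-Seq v4 and Nextera XT workflow, which adds no molecular identifiers and keeps no strand. The submitters' processing notes name Trim Galore, Bowtie2, Cufflinks, DESeq and the build mm10; their versions and parameters, and the program that produced the counts, are not given in the sources used here. Each library was taken from its column by its label.

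Counts were filtered with edgeR's filterByExpr, scaled by TMM and tested with edgeR 4.0.16's quasi-likelihood test (robust, R 4.3.3, limma 3.58.1), all 19375 genes together, with Benjamini-Hochberg adjustment and a threshold of 0.05. CPM values are counts per library total scaled by its TMM factor. Of the counts from 1 to 19, 73.8% to 79.6% per library were even, so mates of a read pair may have been counted singly and counts may overstate independent fragments. Standard errors are the log2 fold change divided by the root of the test's F. Limits from counts cover counting error only. Alternatives were DESeq2's size factors, library totals, DESeq2 1.42.0's Wald test, no filter, a mean of at least 1 CPM, a replicate block, the date in the column identifiers (day 3 or 16 of month 9) as a term and its later date alone, and leaving out each library. Leaving out 3 libraries together was chosen after seeing the data. The test was checked on simulated counts.

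The carriers and lists were chosen with earlier results of these data known. Named were all called carriers, the best known members of each family, the 10 with the highest mean CPM, and up to 3 called partner genes per direction and list. Atf4, Bsg, Csad, Slc2a8 and Slc2a12 were added after their values were seen. A carrier and a partner gene that the rule would name are not reported here. Slc7a12, with at most 10 counts in any library, was not tested. Gene positions and exon lengths are from GENCODE M21 (GRCm38, the same assembly as mm10), and promoters from RefSeq, which held 71 of the 100 genes.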

Additional observations from a re-analysis of the deposited data

How the results depend on the processing

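Of the 15 called carriers, Slc1a5, Slc2a10, Slc6a15, Slc15a2, Slc15a4, Slc16a12, Slc38a5 and Slc43a2 passed in all 15 alternatives and Slc2a4 in 14. The count of carriers higher in muscle, 8, was 5 with library totals and 3 to 9 when each library was left out in turn. The count higher in epithelium, 7, was 12 by DESeq2's Wald test, 11 without the 3 libraries with most receptor counts and 6 to 8 when each library was left out in turn. Of partner genes, 8 were higher in muscle, 5 with library totals and 4 to 9 when each library was left out in turn. Partner genes higher in epithelium, 4, were 10 with library totals, 9 by the Wald test, 7 with the replicate block, 8 with the date term, 7 within the later date, 7 without the 3 libraries and 2 to 6 when each library was left out in turn. Over all genes tested, the share called in either direction was 10.7% in the main fit. It was 12.8% with library totals, 18.3% by the Wald test and 12.5% with the replicate block. With the date term it was 16.4%, and within the later date 17.6%. When each library was left out in turn it was 5.78% to 12.8%. The cause of these changes was not tested.

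With the replicate number as a block, 10 carriers were higher in muscle and 9 in epithelium, 14 of the 15 calls remained, and Slc2a4 had an adjusted p of 0.054 (edgeR). Slc16a3 (-0.99, adjusted p = 0.0084), Slc38a1 (0.018), Slc38a2, Slc43a1 and Slc43a3 (each 0.044) passed with the block. Deviations from the group means of same-numbered libraries correlated at 0.57, 0.66 and -0.42 over 19375 genes, and muscle replicate 3 correlated best with epithelium replicate 1 (0.66). Both replicates numbered 2 share the earlier date of the column identifiers and the other 4 libraries the later one, so the numbers coincide with the date for replicate 2, and beyond that a pairing by number is not shown.

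Signs turned for 8 named genes that were not called, and the cause was not tested. The log2 fold change of Slc7a6 was 0.10, with -0.15 to 0.28 when each library was left out in turn, -0.0086 with DESeq2's size factors, -0.15 with library totals, -0.0091 by the Wald test, -0.039 within the later date and -0.22 without the 3 libraries. Slc6a8 (0.16) was -0.14 with totals and -0.33 to 0.41 with each library left out. Slc5a1 (0.15) was -0.87 with the block, -1.58 with the date term, -2.88 within the later date, -1.002 without the 3 libraries and -2.98 to 0.72 with each library left out. Slc6a14 (0.48) was -0.78 with the block, -1.61 with the date term and -3.12 to 1.07 with each library left out. Slc36a1 (-0.14) was 0.088 within the later date, 0.012 without the 3 libraries and -0.37 to 0.093 with each library left out. Leaving out each library also turned Slc16a1 (-0.50 to 0.18), Slc38a10 (-0.33 to 0.13) and Slc7a8 (-0.50 to 0.024).

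The shallowest library held 11847432 counts, and carriers of a few counts per library allow no comparison at this depth.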
